A study of Rattus norvegicus with 8 samples.

Results

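Chondrocytes of rat femoral condyles were exposed to tumour necrosis factor alpha (TNFα) and set against chondrocytes that received DMSO, and the response was read across all probe sets of the array rather than among chemokines and cartilage matrix genes alone. The members are the 4 arrays labelled as TNFα treated without U0126 or as DMSO treated, of 8 arrays in the series, and the 31042 probe sets that are not controls. TNFα chondrocytes received DMSO for 30 min and then 30 ng/ml TNFα for 24 h, in independent experiments 1 and 2. DMSO chondrocytes received DMSO for 30 min and then the carrier of TNFα for 24 h, in the same experiments. All cells came from cartilage of 1-day-old Sprague Dawley rats, were cultured as primary monolayers and were kept without serum before treatment. The other 4 arrays, with U0126, an inhibitor of the kinases MEK1/2, served only to estimate the spread. Each group thus holds 1 array in each of 2 experiments. The p values therefore measure how far treatment differences varied between the 2 experiments, pooled over the 4 treatments of the series.

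TNFα is a cytokine of activated macrophages and synovial cells that is raised in inflamed joints. Its receptor TNFR1 recruits adaptor and TRAF proteins and activates the IκB kinases, which mark the IκB inhibitors for degradation and release NF-κB dimers to the nucleus, and it also activates MAP kinases. In cartilage it is known for lowering matrix synthesis and raising the enzymes that break matrix down. Interferon-responsive genes and genes of antigen presentation are further known targets, through NF-κB itself and through factors of the IRF family.

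Intensities are RMA summary values brought to a common array median on a linear scale, and they are not comparable between genes. A fold is the TNFα array over the DMSO array of the same experiment. Log2 fold changes are given with their standard error (SE) from limma (fit over all 8 arrays, experiment as block), and a gene rose or fell where its Benjamini-Hochberg adjusted p over all 31042 probe sets was under 0.05. A gene is read by 1 probe set, the brightest of those that name it alone. Bulk RNA was measured, so fewer cells of a type and less RNA per cell cannot be told apart.

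The chondrocyte label was borne out in part by the markers. Col2a1, type II collagen of cartilage, had intensities of 29958 and 24282 with TNFα and 32103 and 26758 with DMSO. Of 8 chondrocyte markers measured 6 passed as lower with TNFα in limma, and all 8 lay below 1-fold in both experiments. Sox9 was not analysed here, because no probe set names it alone. Fibroblast collagens were bright as well, with Col1a1, type I collagen, at 28732 and 33367 with TNFα and 30287 and 34358 with DMSO. Of 7 fibroblast and synovial markers Dpt, dermatopontin, fell by 0.63, while Thy1 and Postn had log2 fold changes of -0.45 and 0.41 and did not pass (adjusted p = 0.0661 and 0.0536, limma). Of 8 muscle markers Acta1 and Tnnt3 fell. Among 12 macrophage and osteoclast markers only the lysosomal protein Cd68 rose, while the leukocyte marker Ptprc had 65.8 and 67.0 with TNFα and 67.1 and 68.7 with DMSO. None of 25 lymphocyte, endothelial, osteoblast and erythroid markers passed in limma, with 12 lower and 0 higher at an unadjusted p under 0.05, and 0 reached a log2 fold of 0.54 in the same direction in each experiment. Adipocyte markers differed mainly between experiments. Their summed intensity was 2250 and 13438 with TNFα and 2762 and 17614 with DMSO in experiments 1 and 2, and the genes it touches are described with the falls.

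Of 31042 probe sets, 1611 passed (5.19%), 1057 higher with TNFα (3.41%) and 554 lower (1.78%). Read by gene, 599 of 14217 named genes rose (4.21%) and 301 fell (2.12%), and these shares are the background for every list below. At an unadjusted p under 0.05 in limma, 1988 named genes were higher and 1990 lower, the background for every such count given here. Chemokines gave 12 of the genes that rose and cartilage matrix proteins 12 of those that fell, so that 876 of 900 changed genes (97.3%) lay outside both, as did 99.6% of all named genes. The 46 gene lists, chosen with earlier results of these data known, hold 1462 measured genes and 224 of the changed ones, and 676 changed genes are on no list.

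Rises were larger than falls. The median fold was 1.57 for genes that rose and 0.727 for genes that fell. A rise of at least 2-fold was seen in 171 genes and of at least 4-fold in 38, whereas 15 genes fell to 0.5 or less. By a rule without p values, a log2 fold of at least 0.54 in each experiment, 513 probe sets were higher (1.65%) and 115 lower (0.37%). The response was larger in experiment 1 for 434 of the 599 genes that rose and 187 of the 301 that fell (72.5% and 62.1%), against 51.8% of all named genes. Across the 14217 genes, which are not independent of each other, the log2 folds of experiments 1 and 2 correlated at r = 0.709 (Pearson). The lowest TNFα intensity lay above the highest DMSO intensity for 524 of the 599 genes that rose, as it did for 2620 of all 14217 genes, against 4.21% called higher. The highest TNFα intensity lay below the lowest DMSO intensity for 217 of the 301 genes that fell and for 3496 of all genes, against 2.12% called lower.

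**Figure D1:**
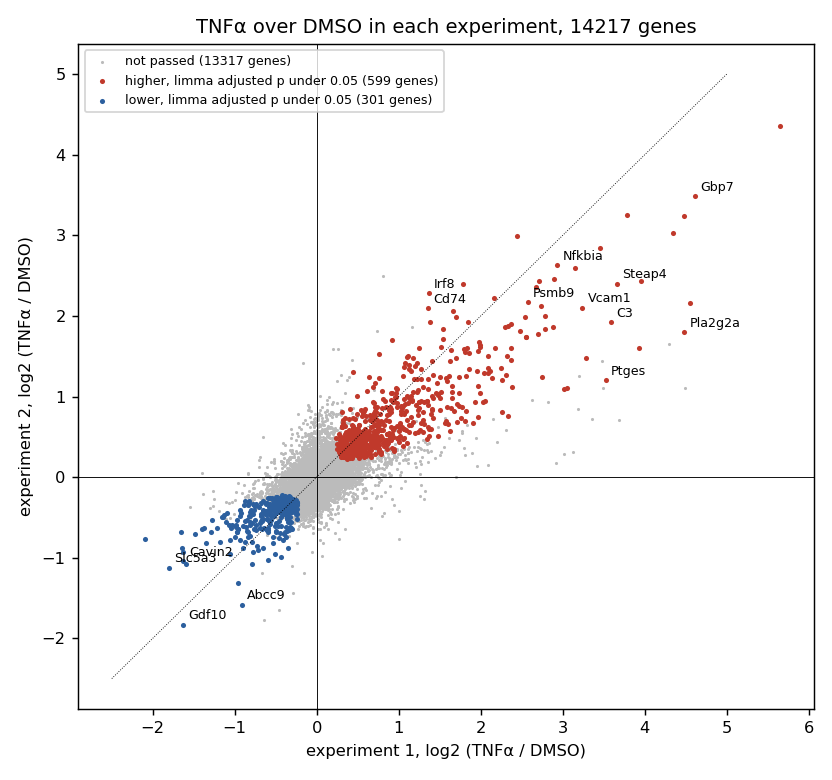
Log2 of TNFα over DMSO in experiment 1 (x axis) and experiment 2 (y axis) for 14217 genes, each a point; red points rose and blue points fell by limma, grey points did not pass, and the dotted line marks equal folds. Most red points lie below the dotted line, since 434 of 599 had the larger fold in experiment 1.

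Calls depended on the block and on single arrays, most of all on the DMSO array of experiment 1. With no replicate block 25 probe sets passed as higher and 0 as lower in limma, and 1537 were higher and 1738 lower at an unadjusted p under 0.05. Of the 900 changed genes, 326 and 563 remained changed without the TNFα array of experiment 1 or 2, 230 and 322 without the DMSO array of experiment 1 or 2, and 468 to 505 without an array with U0126. In each of these 8 fits 189 genes remained, and genes said below to hold throughout are among those 189. Under the block, leaving out either array of the same U0126 treatment gave the same calls, so these 8 fits are not all distinct checks. Calls also depended on the probe set. Of 287 changed genes with further probe sets, all of these passed in 90 and none in 163, and in 48 at least 1 had the opposite sign.

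**Figure D2:**
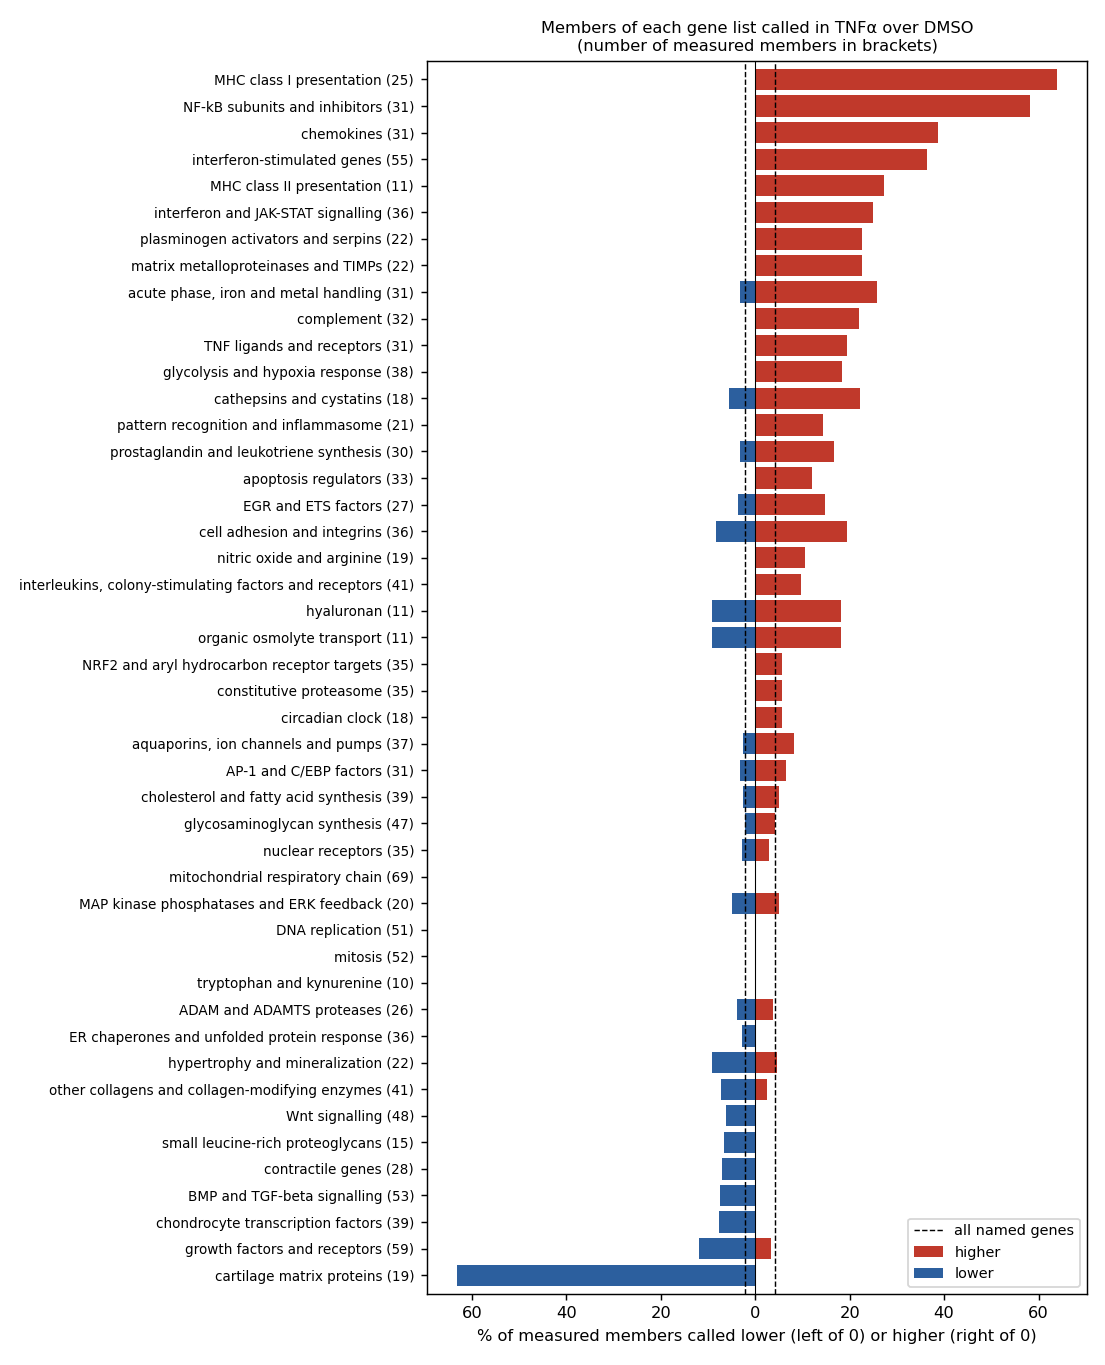
Share of measured members of each of 46 gene lists that rose (red, right of 0) or fell (blue, left of 0) with TNFα by limma, with the number measured in brackets; dashed lines are the shares over all named genes, 4.21% higher and 2.12% lower. MHC class I presentation and NF-κB lie at the top, and cartilage matrix proteins at the bottom.

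The NF-κB system itself was among the lists with the most rises. In the list of NF-κB subunits, inhibitors and adaptors, 18 of 31 measured genes rose and 0 fell, with a median log2 fold change of 0.68 against -0.01 over all named genes. Of the 13 that did not pass, 2 were lower at an unadjusted p under 0.05. Nfkbia, which encodes the inhibitor IκBα and is a direct NF-κB target, had 7890 and 8214 with TNFα against 1031 and 1328 with DMSO, a log2 fold change of 2.78 ± 0.10 (adjusted p = 1.51e-04, limma). Tnfaip3, the ubiquitin-editing enzyme A20 that shuts off TNFR1 signalling, had 3842 and 3930 with TNFα against 587 and 729 with DMSO (2.57 ± 0.09, adjusted p = 1.51e-04). Birc3, the ubiquitin ligase cIAP2 of the receptor complex, had 2633 and 1957 with TNFα against 355 and 356 with DMSO (2.67 ± 0.11, adjusted p = 2.39e-04). For these 3 genes the TNFα arrays lay close together and far above both DMSO arrays. Among the subunits, Relb of the alternative pathway had 2890 and 3096 with TNFα against 732 and 968 with DMSO, and its partner Nfkb2 had 2391 and 2553 against 901 and 944. Nfkb1, the p105/p50 subunit of the canonical pathway, rose less, by 0.77 ± 0.08, and Tnip1, an adaptor of A20, rose by 1.82 ± 0.10 on the log2 scale. The other 11 genes that rose were Bcl3, Birc2, Ikbkb, Map3k8, Nfkbib, Rela, Tank, Tnip2, Traf2, Traf3 and Zc3h12a.

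Promoter windows are shown for genes of this system and for genes of the interferon and MHC class I lists, because members of these lists rose together. Each is the 300 bases from 250 before to 50 after the RefSeq start site in build GRCr8, 5′ to 3′ on the gene's own strand, and the capitals mark matches on either strand to the κB consensus, to the core of the interferon-stimulated response element (ISRE, TTTC, any 2 bases, TTTC) and to the AP-1 site TGACTCA. The Tnfaip3 window, chr1:15543930-15544229 on the minus strand, holds an AP-1 match followed by 3 κB matches. The Nfkbia window, chr6:78597023-78597322 on the minus strand, and the Nfkb2 window, chr1:255108124-255108423 on the plus strand, hold 1 κB match each. The Tap1 window, chr20:4668494-4668793 on the minus strand, holds an ISRE core and then a κB match, and the Gbp7 window, chr2:233948639-233948938 on the plus strand, holds 1 ISRE core.
Tnfaip3: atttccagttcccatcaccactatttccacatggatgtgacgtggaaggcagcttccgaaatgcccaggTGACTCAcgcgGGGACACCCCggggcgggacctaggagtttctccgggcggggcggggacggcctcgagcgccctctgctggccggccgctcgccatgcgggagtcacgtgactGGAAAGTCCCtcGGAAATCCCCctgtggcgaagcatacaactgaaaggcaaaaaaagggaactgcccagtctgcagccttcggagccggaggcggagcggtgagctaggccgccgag
Nfkbia: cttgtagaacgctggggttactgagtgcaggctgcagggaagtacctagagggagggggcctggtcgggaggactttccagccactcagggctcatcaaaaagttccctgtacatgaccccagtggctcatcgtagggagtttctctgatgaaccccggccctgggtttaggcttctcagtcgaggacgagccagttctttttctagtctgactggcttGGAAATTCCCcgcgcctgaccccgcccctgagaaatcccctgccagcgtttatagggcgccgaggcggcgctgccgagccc
Nfkb2: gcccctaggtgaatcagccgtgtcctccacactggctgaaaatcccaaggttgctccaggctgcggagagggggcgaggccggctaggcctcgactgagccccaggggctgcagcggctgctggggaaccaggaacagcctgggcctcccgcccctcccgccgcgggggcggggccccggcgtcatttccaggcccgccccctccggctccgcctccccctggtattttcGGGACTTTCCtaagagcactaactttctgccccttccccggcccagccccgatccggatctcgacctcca
Tap1: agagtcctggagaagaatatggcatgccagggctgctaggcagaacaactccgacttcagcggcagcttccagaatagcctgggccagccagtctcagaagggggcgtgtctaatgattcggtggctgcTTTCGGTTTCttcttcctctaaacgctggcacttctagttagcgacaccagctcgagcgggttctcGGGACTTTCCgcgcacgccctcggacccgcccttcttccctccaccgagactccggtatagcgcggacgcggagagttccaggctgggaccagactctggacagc
Gbp7: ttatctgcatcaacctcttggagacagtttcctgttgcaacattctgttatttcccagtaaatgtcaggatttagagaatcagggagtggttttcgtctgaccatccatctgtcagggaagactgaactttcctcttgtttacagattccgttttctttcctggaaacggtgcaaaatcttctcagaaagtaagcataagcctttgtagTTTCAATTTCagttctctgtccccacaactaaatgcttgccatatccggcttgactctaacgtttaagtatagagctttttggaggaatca

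Counted over windows, 8 of the 15 NF-κB list genes that rose and have a window in the table held a κB match, and 0 held an ISRE core. Of 15 MHC class I genes that rose, 5 held a κB match and 8 an ISRE core, and of 18 interferon-stimulated genes that rose, 2 and 12. Over the 11700 windows of genes named on the array, 4.95% held a κB match, 2.99% an ISRE core and 3.79% an AP-1 site, and over all 27457 windows the shares were 4.16%, 3.77% and 4.53%. Among all 489 genes that rose and have a window the shares were 11.2%, 8.79% and 6.34%, and among 233 genes that fell 6.87%, 2.58% and 2.58%. Matches of the κB consensus can overlap one another, and a window counts when it holds at least 1. Matches are letters in a window and not measured sites, and these genes were chosen by their calls, so the shares are a description.

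In the wider family of TNF ligands, receptors and induced proteins 6 of 31 measured genes rose and 0 fell (median log2 fold change 0.11). Fas, the death receptor, had 2743 and 2567 with TNFα against 1265 and 906 with DMSO (1.31 ± 0.12), Tnfaip2 rose by 2.13 ± 0.17, and Tnfaip6, the hyaluronan-binding protein TSG-6 of inflamed cartilage, rose by 1.89 ± 0.22. A dim probe set of Fas, Tnfaip2 and Tnfaip6 did not pass (0.22, -0.10 and 0.28), while further ones of Fas and Tnfaip2 rose. Tnfrsf9, the costimulatory receptor 4-1BB, the ligand Tnfsf13 (APRIL) and the death adaptor Fadd rose as well, by 1.06, 0.78 and 0.32 on the log2 scale. The TNF receptors themselves did not pass. Tnfrsf1a, TNFR1, had 7838 and 6566 with TNFα against 5860 and 6345 with DMSO (adjusted p = 0.173, limma), and Tnfrsf1b, TNFR2, had 161 and 173 against 138 and 149.5 (adjusted p = 0.195). Among apoptosis regulators 4 of 33 rose and 0 fell. Ier3 and Gadd45b, stress genes with known roles in survival, rose by 1.80 and 1.01, the BH3 protein Bid by 0.73 and Casp12 by 0.59. Among the 28 calls here, 20 and 27 remained without the TNFα array of experiment 1 or 2, 16 and 21 without the DMSO array of experiment 1 or 2, and 22 to 24 without an array with U0126. Nfkbia, Tnfaip3, Birc3, Relb, Nfkb1, Nfkb2, Tnip1, Tnfaip2, Fas, Gadd45b and Bid held throughout.

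Of 55 interferon-stimulated genes measured, 20 rose and 0 fell (median log2 fold change 0.32), and of the 35 that did not pass 2 were lower at an unadjusted p under 0.05. Gbp7, a guanylate-binding protein of cell-autonomous immunity, had 2471 and 2607 with TNFα against 101.2 and 233 with DMSO, which is 24.4- and 11.2-fold in experiments 1 and 2 (4.05 ± 0.43, adjusted p = 0.00509, limma). Gbp2 of the same family had 654 and 1792 with TNFα against 112 and 539 with DMSO. The Gbp genes are close copies whose probe sets may share sequence, so their values are uncertain between members. Parp14, an ADP-ribosyltransferase, rose by 1.09 ± 0.11, the GTPase Igtp by 1.14 ± 0.12 and the interferon-induced Nmi by 1.11 ± 0.09. Cxcl11, also a chemokine, had 1696 and 2130 against 381 and 456 and the smallest spread of these (log2 SE 0.06). The remaining 14 were Cxcl10, Dtx3l, Eif2ak2, Herc6, Ifi35, Ifi44l, Ifit2, Ifitm2, Irgm2, Parp9, Parp10, Parp12, Samhd1 and Ube2l6.

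Of 36 receptors and factors of interferon signalling measured, 9 rose and 0 fell (median log2 fold change 0.19). Irf1, an activator of MHC class I and GBP genes, had 3719 and 4911 with TNFα against 1072 and 1625 with DMSO (1.70 ± 0.08, adjusted p = 3.21e-04, limma). Irf8, a factor best known from macrophages, had 400.2 and 777 with TNFα against 155 and 160.1 with DMSO, with the larger fold in experiment 2, 2.58- and 4.85-fold in experiments 1 and 2. Irf2 rose by 0.95. The interferon receptor chains Ifngr1, Ifngr2 and Ifnar2 rose by 0.98, 0.76 and 0.54 on the log2 scale, and Ifnar1, Jak2 and the phosphatase Ptpn2 also passed. From these 29 calls, 15 and 25 remained without the TNFα array of experiment 1 or 2, 10 and 15 without the DMSO array of experiment 1 or 2, and 19 to 24 without an array with U0126. Gbp7, Cxcl11, Igtp, Nmi, Parp14, Irf1, Irf8, Ifngr1 and Ifngr2 held throughout. Beside the macrophage-type genes in this list, Ptprc was near 67 on all 4 arrays and Adgre1, another macrophage marker, had 35.3 and 340.4 with TNFα and 30.0 and 201 with DMSO, higher in experiment 2 in both groups. The part of such cells in these results was not tested.

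**Figure D3:**
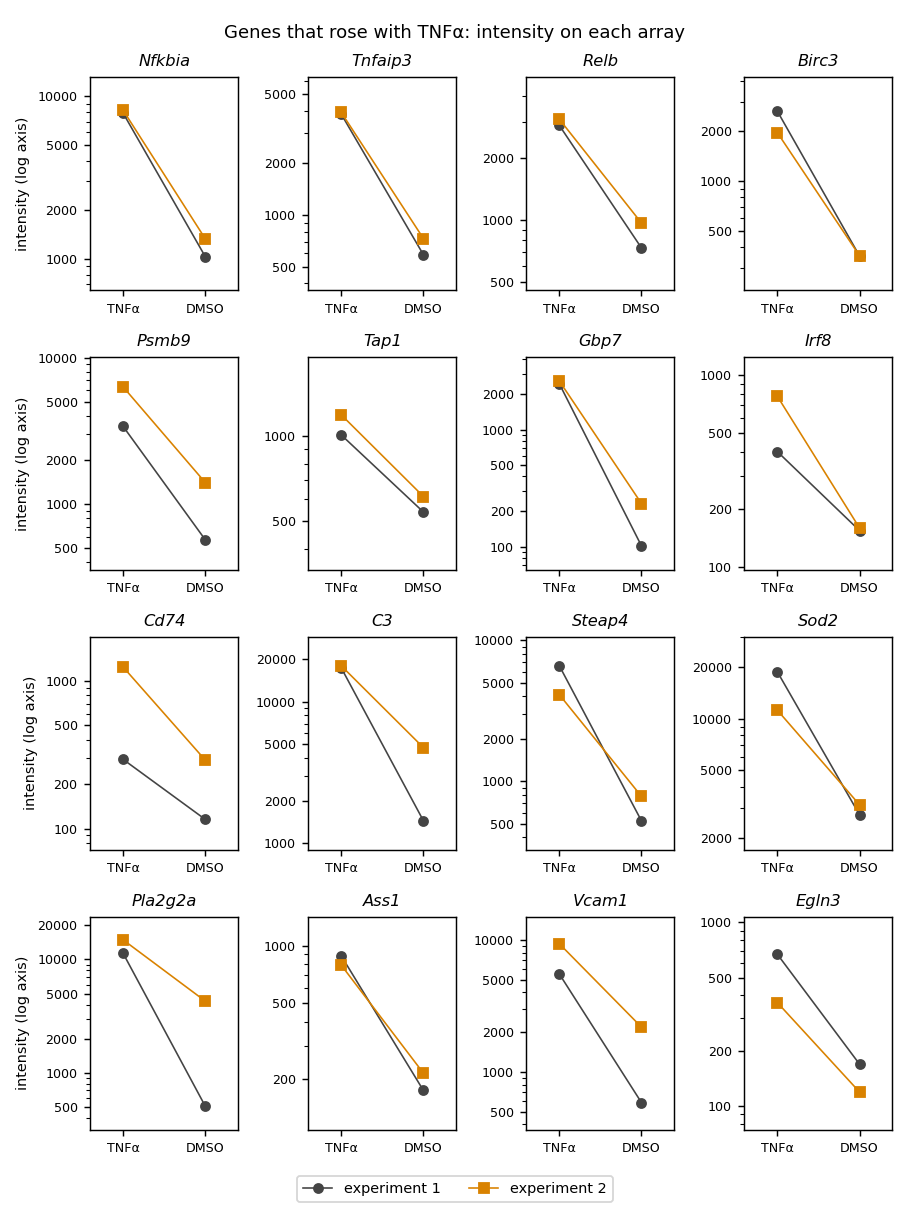
Intensity (log axis) of 16 genes that rose, on each array, with TNFα on the left and DMSO on the right of each panel; circles and squares are experiments 1 and 2, joined within an experiment. Both TNFα values lie above both DMSO values in every panel, and Cd74 comes closest to overlap, with 294 and 1239 against 115 and 290.4.

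MHC class I presentation was the list with the highest share of rises, 16 of 25 measured genes, with 0 falls and a median log2 fold change of 0.70. The catalytic subunits of the immunoproteasome, which replace those of the standard proteasome in inflamed cells, rose together. Psmb9 had 3388 and 6304 with TNFα against 569.5 and 1400 with DMSO (2.37 ± 0.15, adjusted p = 7.83e-04, limma). Psmb8 had 2042 and 2975 with TNFα against 396 and 979.5 with DMSO (1.99 ± 0.21), and Psmb10 had 1454 and 2932 against 613 and 966 (1.42 ± 0.12). In all 3 genes experiment 2 was the brighter in both groups, and both TNFα arrays lay above both DMSO arrays. The activator subunits Psme1 and Psme2 rose by 0.92 and 0.97, and Tap1 and Tap2, the peptide transporter, passed as well. Tap1 had 1011 and 1191 with TNFα against 539.6 and 612 with DMSO. A second, dimmer probe set of Tap1 and of Psme1 did not pass (-0.11 and -0.19, adjusted p = 0.309 and 0.136, limma). The promoter window of Tap1 overlaps that of Psmb9, which lies on the opposite strand at chr20:4668750-4669049 and held no match. Tapbp and Erap1, which load and trim peptides, and the class I heavy chain genes RT1-M3-1, RT1-T24-4, RT1-S3, RT1-CE10, RT1-N3, RT1-CE5 and RT1-CE16 also rose. The RT1 genes are near-identical copies, so their values may be shared between them.

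The light chain B2m gave different answers by probe set. Its brightest probe set had 20697 and 24187 with TNFα against 10668 and 18183 with DMSO and missed the threshold (adjusted p = 0.0616, limma), whereas the other rose by 1.49 on the log2 scale, with 5775 and 8435 with TNFα against 1599 and 3869 with DMSO (adjusted p = 0.0134). In contrast to the immunoproteasome, the standard proteasome moved little. Only 2 of its 35 measured subunits rose, Psmd10 by 0.81 and Psma6 by 0.36, 0 fell, and the median log2 fold change was 0.04. Of 11 MHC class II genes, 3 rose and 0 fell. Cd74, the invariant chain of class II molecules, had 294 and 1239 with TNFα against 115 and 290.4 with DMSO, RT1-Da, a class II chain, had 212 and 889.6 against 156 and 360.4, and the class II factor Rfx5 rose by 0.52. For RT1-Da the groups overlapped, since its level depended on the experiment. Of the 21 calls in these lists, 16 and 17 remained without the TNFα array of experiment 1 or 2, 12 and 12 without the DMSO array of experiment 1 or 2, and 15 to 18 without an array with U0126. Psmb8, Psmb9, Psmb10, Psme1, Psme2, Tap1, Tap2, RT1-M3-1 and RT1-T24-4 held throughout.

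Among complement genes, whose products are best known from blood plasma, 7 of 32 rose and 0 fell, while 4 were lower at an unadjusted p under 0.05 and the median of the list was -0.02. C3, the central component, had 17340 and 17912 with TNFα against 1441 and 4732 with DMSO, 12- and 3.79-fold in experiments 1 and 2 (2.75 ± 0.55, adjusted p = 0.0411, limma). The difference in fold came from the DMSO arrays, as the TNFα arrays were close. C1r, a protease of the first component, had 13295 and 14267 with TNFα against 3266 and 7475 with DMSO. The regulators C4bpa, Cd55 and Clu rose by 1.13, 0.99 and 1.08, and the proteases Masp1 and C1s passed too.

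Acute phase, iron and metal handling genes had 8 rises and 1 fall among 31 measured and a median log2 fold change of 0.51. Haptoglobin, Hp, which binds free haemoglobin, had 4533 and 8240 with TNFα against 658 and 2061 with DMSO (2.39 ± 0.19, adjusted p = 0.0016, limma). Steap4, a metalloreductase, had 6622 and 4128 with TNFα against 524 and 782 with DMSO, and Sod2, the mitochondrial superoxide dismutase, 18854 and 11237 against 2742 and 3138. Ceruloplasmin, Cp, the copper ferroxidase, rose by 1.25. The metal importers Slc39a14 and Slc11a2 rose by 0.83 and 0.68, and Hpx, which binds haem, and Steap2 passed. The fall was in Slc40a1, ferroportin, the iron exporter, with 2102 and 2672 with TNFα against 4591 and 3687 with DMSO (-0.80 ± 0.16, adjusted p = 0.0439). Lcn2, the siderophore-binding lipocalin, had 22078 and 8944 with TNFα against 3132 and 4706 with DMSO and did not pass (adjusted p = 0.103), its folds of 7.05- and 1.9-fold being far apart. Of these 16 calls, 10 and 16 remained without the TNFα array of experiment 1 or 2, 5 and 10 without the DMSO array of experiment 1 or 2, and 11 to 13 without an array with U0126. Hp, Sod2, Cp, C4bpa and Cd55 held throughout, and neither C3 nor Steap4 did.

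Lipid mediators gave 5 rises and 1 fall among 30 measured genes, with a median of -0.05 on the log2 scale. Pla2g2a, a secreted phospholipase that frees fatty acids, had 11315 and 14886 with TNFα against 506 and 4285 with DMSO, 22.4- and 3.47-fold in experiments 1 and 2 (adjusted p = 0.0474, limma). Ptges, the inducible prostaglandin E synthase, had 5769 and 1750 with TNFα against 502 and 758 with DMSO (adjusted p = 0.0493). Ptges also has a probe set that did not pass (adjusted p = 0.0618, limma). Ptgs2, the inducible cyclooxygenase that acts upstream of it, did not pass, with 465 and 357 with TNFα against 467 and 399 with DMSO (adjusted p = 0.755). Genes that clear prostaglandins rose as well, the dehydrogenase Hpgd by 1.31 and the transporter Slco2a1 by 1.13, and Pla2g5 rose by 0.58. Ptgis, prostacyclin synthase, fell, with 341 and 369.8 with TNFα against 432 and 500.3 with DMSO.

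Of 19 nitric oxide and arginine genes 2 rose and 0 fell. Ass1, which remakes arginine from citrulline, had 885 and 791 with TNFα against 175 and 215 with DMSO (2.11 ± 0.13, adjusted p = 8.11e-04, limma), and Gch1, which makes the cofactor of nitric oxide synthases, had 1078 and 351 against 218 and 146. A second probe set of Gch1 had folds of 1.86 and 0.956 and did not pass (adjusted p = 0.281, limma). Nos2, the inducible synthase, had 1230 and 1261 with TNFα against 1297 and 1386 with DMSO and did not pass (adjusted p = 0.301). In the kynurenine list none of 10 genes passed in limma, and 4 of them were lower at an unadjusted p under 0.05. Among interleukins, colony-stimulating factors and receptors 4 of 41 rose and 0 fell. Csf1 and Il34, both ligands of the macrophage receptor Csf1r, had 8119 and 7183 with TNFα against 2909 and 3519 with DMSO, and 1052 and 1209 against 215 and 334. The receptor chain Il6st rose by 1.08 and the decoy Il18bp by 0.86. Il6 had 103 and 62.1 with TNFα against 47.2 and 47.8 with DMSO, and did not pass (adjusted p = 0.0652). In the pattern recognition list 3 of 21 rose and 0 fell, the receptor Tlr2, Irak3, which dampens Toll-like receptor signalling, and the inflammasome adaptor Pycard. Tlr2 had 2112 and 755 with TNFα against 217 and 271 with DMSO. Among the 15 calls here, 11 and 12 remained without the TNFα array of experiment 1 or 2, 6 and 7 without the DMSO array of experiment 1 or 2, and 9 to 13 without an array with U0126. Ass1, Csf1, Il34, Il6st and Il18bp held throughout.

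Protease lists differed in their calls. Of 22 metalloproteinases and TIMPs 5 rose and 0 fell, with a median of -0.01. Mmp3, stromelysin, had 25621 and 11191 with TNFα against 1089 and 2499 with DMSO, and Mmp13, a collagenase, 17892 and 5810 against 1177 and 1912, with far larger folds in experiment 1, 23.5- and 4.48-fold for Mmp3 and 15.2- and 3.04-fold for Mmp13. Mmp9, Mmp12 and the inhibitor Timp1 rose by 1.69, 1.55 and 0.91, and a second, dimmer probe set of Mmp9 rose less, by 0.92. Among ADAM and ADAMTS proteases 1 of 26 rose and 1 fell, shares of 3.85% each. Adam17, the enzyme that releases TNFα from the cell surface, had 4653 and 4057 with TNFα against 2533 and 2776 with DMSO (0.71 ± 0.09, adjusted p = 0.00841, limma). Adam22 fell by 0.50, while its other, dimmer probe sets did not pass (0.28 and -0.14, adjusted p = 0.195 and 0.227, limma). The plasminogen list had 5 rises among 22 genes and 0 falls. Plat and Plau, the tissue and urokinase activators of plasminogen, had 4637 and 2502 with TNFα against 1093 and 1026 with DMSO, and 1374 and 1317 against 661 and 549.5. Their inhibitor Serpine2, the granzyme inhibitor Serpinb9 and Tfpi, the inhibitor of tissue factor, rose by 0.93, 0.94 and 0.47. Of 18 cathepsins and cystatins 4 rose, Ctsc, Ctss, Ctsb and Lgmn, by 1.20, 0.47, 0.50 and 0.42, and Ctse fell by 0.28.

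Adhesion molecules moved in both directions, 7 of 36 up and 3 down. Vcam1, the ligand of leukocyte integrin VLA-4, had 5532 and 9372 with TNFα against 586 and 2184 with DMSO (2.67 ± 0.25, adjusted p = 0.00289, limma). Icam1, the ligand of LFA-1, had 16620 and 13052 with TNFα against 6210 and 5426 with DMSO (1.34 ± 0.07, adjusted p = 4.93e-04). The integrin chains Itga1 and Itgav and the cadherin Cdh13 rose by 0.60, 0.61 and 0.45, and Cd44, the hyaluronan receptor, and Jam3 passed. The collagen-binding chain Itga11 fell by 0.68, and Itgb3 and Jam2 fell too. From these 27 calls, 9 and 20 remained without the TNFα array of experiment 1 or 2, 5 and 11 without the DMSO array of experiment 1 or 2, and 12 to 14 without an array with U0126. Only Vcam1, Icam1, Adam17 and Plau held throughout among them.

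Chemokines and cartilage matrix give the scale of the response. In the chemokine list 12 of 31 genes rose and 0 fell, led by Ccl2, which attracts monocytes, with 14036 and 17104 with TNFα against 279 and 833 with DMSO, and 9 to 12 of the 12 calls remained in each fit without 1 array. Among 19 cartilage matrix proteins 12 fell and 0 rose (median log2 fold change -0.40), led in fold by Clec3a and Mia, with 1887 and 1303 with TNFα against 5698 and 2746 with DMSO for Mia, a small secreted cartilage protein. Acan, the aggrecan core protein, had 14421 and 7741 with TNFα against 21577 and 11287 with DMSO, and Col2a1 did not pass (adjusted p = 0.273, limma). In experiment 1 the Col2a1 intensities lay near the highest of their arrays, 31216 with TNFα and 31956 with DMSO as deposited. A fall may be understated there, and the paper's real-time PCR found Col2a1 lowered by TNFα. For Acan the groups overlapped across experiments, though the TNFα array was the lower in each. Fewer genes passed in the other matrix lists. Aspn, asporin, was the only one of 15 small leucine-rich proteoglycans to pass, with 1373 and 2975 with TNFα against 2078 and 4627 with DMSO. Of 41 other collagens and collagen enzymes Col18a1, the source of endostatin, rose by 1.55, while P3h1, Col27a1 and Loxl3 fell by 0.38, 0.52 and 0.60. For hyaluronan the synthase Has2 fell by 0.44 and Hyal3 and Tnfaip6 rose, of 11 genes. For glycosaminoglycans Ugdh, which makes UDP-glucuronate, rose by 0.60, Hs2st1 rose by 0.40 and the sulfate-donor enzyme Papss1 fell by 0.35, of 47. Among 28 contractile genes Cnn1 fell by 0.59 and Acta1 fell by 0.34, with Acta1 among the dimmer genes of the array. Of the 25 calls in these lists, 9 and 13 remained without the TNFα array of experiment 1 or 2, 7 and 11 without the DMSO array of experiment 1 or 2, and 14 to 15 without an array with U0126. Acan, Cnmd, Matn1, Mia, Scrg1, Aspn and Cnn1 held throughout.

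In the lists of growth factors, BMP and Wnt signals falls outnumbered rises. Of 59 growth factors and receptors 7 fell and 2 rose. Igfbp3, a binding protein of insulin-like growth factors, rose, with 6094 and 11975 with TNFα against 3500 and 5707 with DMSO, and Pdgfra passed. Igfbp4 and Igfbp6 of the same family fell by 0.37 and 0.41, Fgf21 by 0.55, Angptl2 by 0.60, Ccn4 by 0.69, and Fgfr4 and Pdgfrb fell as well. In the BMP and TGF-β list 4 of 53 fell and 0 rose, though the median log2 fold change was 0.05. At an unadjusted p under 0.05 in limma, 11 of the list were higher and 12 lower. Gdf10, a member of the TGF-β family also called BMP3B, had 386 and 624 with TNFα against 1196 and 2216 with DMSO, the largest fall of any gene by the fit (-1.73 ± 0.20, adjusted p = 0.00638, limma). Bmp7, an anabolic factor for cartilage, had 292 and 295 with TNFα against 362 and 380.2 with DMSO, the pseudoreceptor Bambi fell by 0.43 and Ltbp1, which stores latent TGF-β in the matrix, by 0.47.

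In the Wnt list 3 of 48 fell and 0 rose, with a median of -0.13. The secreted Dkk3, the factor Tcf7 and the receptor Fzd8 fell by 0.32, 0.39 and 0.62 on the log2 scale. In the list of hypertrophy and mineralization 2 of 22 fell and 1 rose, with 12 genes lower and 1 higher at an unadjusted p under 0.05. Pth1r, the receptor through which PTHrP holds back hypertrophy, had 1016 and 623 with TNFα against 1225 and 773 with DMSO, Enpp1, which makes pyrophosphate, had 1048 and 794 against 1887 and 1145, and osteopontin, Spp1, had 17126 and 3353 against 2068 and 1564. The Spp1 rise was 8.28- and 2.14-fold in experiments 1 and 2. For Pth1r the groups overlapped, because experiment 1 was the brighter in both groups. Of these 19 calls, 6 and 10 remained without the TNFα array of experiment 1 or 2, 1 and 4 without the DMSO array of experiment 1 or 2, and 7 to 9 without an array with U0126. Only Fgf21 of these held throughout. The calls of Igfbp4, Bmp7, Ltbp1, Dkk3 and Pth1r remained in none of the 8 fits without 1 array.

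**Figure D4:**
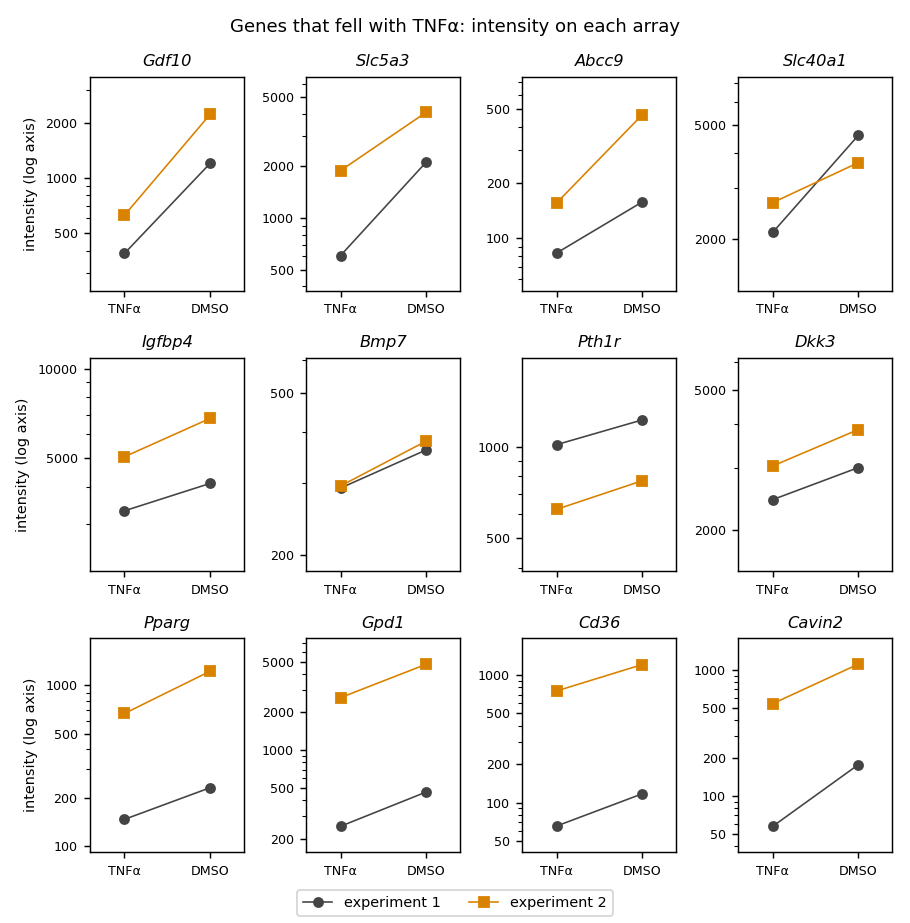
Intensity (log axis) of 12 genes that fell, on each array, with TNFα on the left and DMSO on the right of each panel; circles and squares are experiments 1 and 2, joined within an experiment. In each panel the TNFα end of both lines is the lower, and in the bottom row, with Pparg, Gpd1, Cd36 and Cavin2, experiment 2 lies far above experiment 1. The calls of Igfbp4, Bmp7, Pth1r and Dkk3 remained in none of the 8 fits without 1 array.

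Some of the genes that fell are known from adipocytes and were much brighter in experiment 2. Pparg, the adipogenic nuclear receptor, had 146 and 668 with TNFα against 230.2 and 1224 with DMSO in experiments 1 and 2 (-0.76 ± 0.09, adjusted p = 0.0067, limma). Its partner Cebpa had 984 and 2537 with TNFα against 1303 and 4125 with DMSO. Gpd1, glycerol-3-phosphate dehydrogenase, had 249.9 and 2596 with TNFα against 466 and 4761 with DMSO, a gene chosen here after its values were seen, like Cd36, G0s2 and Aoc3. Within each experiment all of these were lower with TNFα, although the groups overlap across experiments. The fatty acid receptor Cd36 fell by 0.76, the lipolysis inhibitor G0s2 by 0.87, the amine oxidase Aoc3 by 0.63, the brown-fat factor Ebf2 by 1.14, and Cavin2, of caveolae, by 1.33. Of the 5 adipocyte markers Plin1, which coats lipid droplets, fell by 0.39, and Adipoq, Fabp4, Lep and Cidec did not pass. Fabp4, a fatty acid carrier, had 1212 and 8640 with TNFα against 1515 and 11880 with DMSO. A DMSO intensity more than 3-fold higher in experiment 2 was found for 0.387% of all named genes and for 11 of the 301 that fell. The part of adipocyte-type cells in these falls was not tested.

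Transcription factor lists had few calls. Of 31 AP-1 and C/EBP genes Junb and Cebpb rose, with 3953 and 2348 with TNFα against 1187 and 1278 with DMSO for Junb, and Cebpa fell. Of 27 EGR and ETS genes Ets1 rose, with 3517 and 2300 with TNFα against 1238 and 1292 with DMSO, as did Nab1, a corepressor of EGR factors, by 0.56, Elk3 by 0.45 and Etv6 by 0.37. Erg, an ETS factor of articular chondrocytes, fell by 0.56. Among MAP kinase phosphatases and ERK feedback genes Dusp1 rose, with 2477 and 1577 with TNFα against 792 and 757 with DMSO, and Spry4 fell by 0.39, of 20. In the list of chondrocyte factors 3 of 39 fell, Nr4a1 by 0.38 beside Erg and Ebf2, and 0 rose. Npas2 rose by 1.01, the only call among 18 clock genes, and of 35 nuclear receptors Ppard rose by 0.45 and Pparg fell. Among the 15 calls here, 6 and 9 remained without the TNFα array of experiment 1 or 2, 2 and 5 without the DMSO array of experiment 1 or 2, and 8 to 10 without an array with U0126. Nab1 and Pparg held throughout.

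Of 38 genes of glycolysis and the hypoxia response 7 rose and 0 fell, the median log2 fold change was 0.39, and 33 lay above 1-fold in both experiments, against 4619 of 14217 over all named genes. Egln3, a prolyl hydroxylase that is itself a HIF target, had 671 and 366 with TNFα against 169 and 119 with DMSO (1.80 ± 0.14, adjusted p = 0.00154, limma). Adm, adrenomedullin, had 2057 and 1998 with TNFα against 518 and 968 with DMSO. The enzymes moved less. Ldha, lactate dehydrogenase, had 19722 and 13788 with TNFα against 15804 and 11014 with DMSO, where the groups overlap but the experiments gave like folds, 1.25- and 1.25-fold. Pfkl, Tpi1 and Eno2 of glycolysis and the mitochondrial protein Higd1a rose by 0.58, 0.44, 0.39 and 0.55. The calls of Ldha and Eno2 remained in none of the 8 fits without 1 array. The list's median fold was 1.496 in experiment 1 and 1.12 in experiment 2. None of 69 respiratory chain genes passed in limma, with 1 higher and 3 lower at an unadjusted p under 0.05 and medians of 0.988 and 1.00 in experiments 1 and 2. The smallest adjusted p was that of Cox4i2, an isoform induced by low oxygen, with 4770 and 1766 with TNFα against 3191 and 1469 with DMSO (adjusted p = 0.0661).

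Sterol, stress and detoxification genes were close to the background. Acat2 and Msmo1 of cholesterol synthesis rose by 0.40 and 0.36 and the sterol factor Srebf1 fell by 0.41, of 39. Edem1, which directs misfolded proteins out of the ER, fell by 0.34, the only call among 36 ER and unfolded protein genes. Of 35 NRF2 and aryl hydrocarbon receptor targets 2 rose, both of them aryl hydrocarbon receptor targets. Aldh3a1, an aldehyde dehydrogenase, had 1156 and 1159 with TNFα against 370.0 and 388 with DMSO (1.61 ± 0.09, adjusted p = 6.28e-04, limma), and Cyp1b1 had 7196 and 9329 against 3443 and 6142. From these 13 calls, 3 and 7 remained without the TNFα array of experiment 1 or 2, 2 and 4 without the DMSO array of experiment 1 or 2, and 6 to 7 without an array with U0126. Egln3 and Aldh3a1 were the ones that held throughout.

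Cell cycle genes had 0 calls by limma but a large difference between the experiments. None of 52 mitosis genes passed. At an unadjusted p under 0.05, 10 were higher and 0 lower, against 1988 and 1990 of all 14217 named genes. The median log2 fold change of the mitosis genes was 0.32. The median fold was 1.035 in experiment 1 and 1.53 in experiment 2, and 34 genes lay above 1-fold in both experiments and 0 below in both. Kif15, a mitotic kinesin, had 704 and 1103 with TNFα against 573 and 621 with DMSO (adjusted p = 0.1, limma), and Cenpa, the centromeric histone, had 87.2 and 95.2 against 80.2 and 76.9. DNA replication genes showed a like difference between the experiments. None of 51 passed, and 4 were higher and 0 lower at an unadjusted p under 0.05, a smaller share higher than over all named genes. Their median fold was 0.972 in experiment 1 and 1.31 in experiment 2. Pola2, a polymerase subunit, had 452 and 577 with TNFα against 411 and 439 with DMSO (adjusted p = 0.126), and Mcm10 had 704 and 808 against 654 and 600.1. In experiment 2 all 52 mitosis genes and all 51 replication genes were above 1-fold, against 6525 of all 14217 named genes. Whether this belongs to TNFα or to the cultures of experiment 2 cannot be told apart with 1 array per treatment in each experiment.

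**Figure D5:**
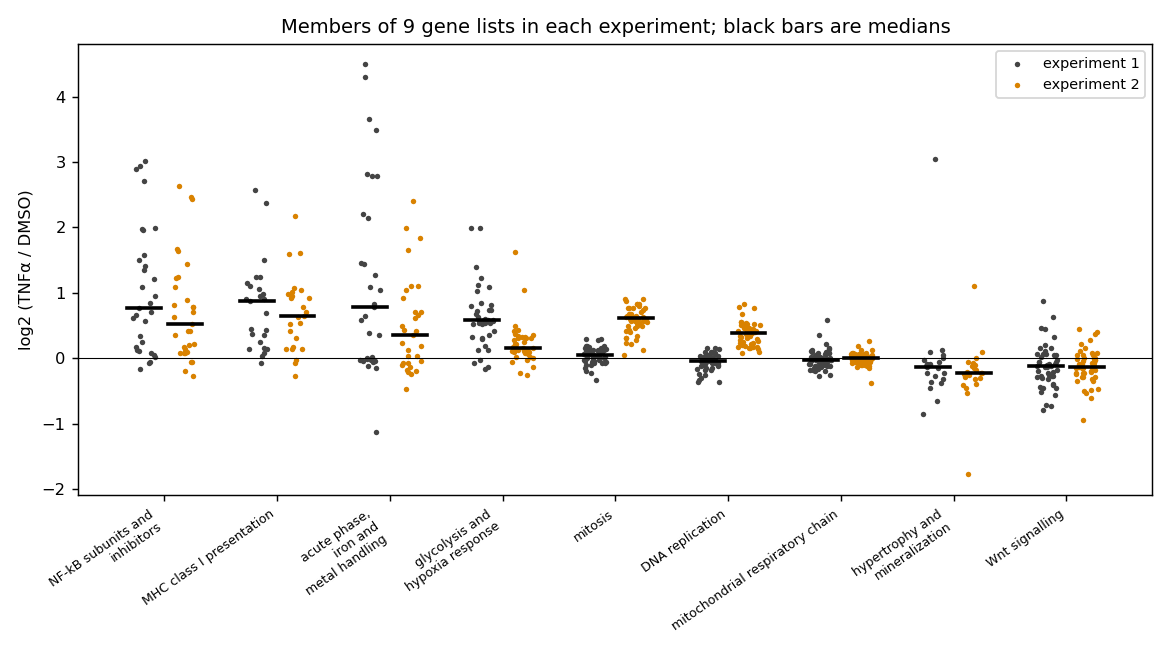
Log2 of TNFα over DMSO for each member of 9 gene lists, in experiment 1 (dark) and experiment 2 (orange), with black bars at the medians. In experiment 2 every mitosis and DNA replication gene lies above 0, at median folds of 1.53 and 1.31, whereas the glycolysis and hypoxia list has its larger median in experiment 1, 1.496 against 1.12.

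Slc5a3, the importer of the osmolyte myo-inositol, had 604 and 1879 with TNFα against 2102 and 4095 with DMSO, the largest fall after Gdf10 (-1.46 ± 0.18, adjusted p = 0.00828, limma), while a second, dim probe set of it did not pass (-0.12, adjusted p = 0.451). The ion cotransporters Slc12a2 and Slc12a7, which set cell volume, rose by 0.55 and 0.49, so that of 11 osmolyte and volume genes 2 rose and 1 fell. Abcc9, the sulfonylurea receptor subunit of ATP-sensitive potassium channels, had 83.4 and 156 with TNFα against 158 and 466 with DMSO (-1.25 ± 0.16, adjusted p = 0.00884). The ATP-gated channel P2rx4, the calcium channel subunit Cacna2d3 and the potassium channel Kcnd3 rose by 0.72, 0.64 and 0.45, which makes 3 rises and 1 fall among 37 channel and pump genes. Of the 7 calls in these lists, 3 and 4 remained without the TNFα array of experiment 1 or 2, 1 and 2 without the DMSO array of experiment 1 or 2, and 5 without an array with U0126. None of them remained in each of the 8 fits.

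Among the 15 largest rises and 15 largest falls, several genes are on no list. Icoslg, the ligand of the T cell costimulator ICOS, had 605 and 2064 with TNFα against 68.1 and 342 with DMSO (2.87 ± 0.23, adjusted p = 0.00205, limma), although its other probe set had folds of 1.25 and 1.65 and did not pass (adjusted p = 0.187). Clec14a, a lectin known from endothelium, had 156 and 516 against 28.7 and 64.7. Icoslg and Clec14a held throughout. C1qtnf3, a secreted protein of cartilage growth, had 2137 and 1406 with TNFα against 6620 and 2678 with DMSO, and Chrdl2, an inhibitor of BMPs, had 189.6 and 149.8 against 394 and 290.1, and these too held throughout. Ndp, the Wnt-type ligand norrin, fell by 1.02, Tril, a coreceptor of Toll-like receptors, by 1.09, Gatm, which makes the precursor of creatine, by 1.10, and Tmeff1, Mall and Gas2 by 1.26, 1.17 and 1.00. In these last 6 genes the fall was larger in experiment 1, and the calls of all 6 were lost in at least 1 of the 8 fits without an array. A second, dimmer probe set of Gatm did not pass (-0.10, adjusted p = 0.505, limma), while those of Ndp and Tmeff1 fell by 0.32 and 1.04. For Tril and Gas2 the groups overlapped across experiments, while for Icoslg, Clec14a, Chrdl2, Ndp, Gatm, Tmeff1 and Mall they did not.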

How the data were processed

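RNA of primary rat chondrocytes was hybridised to single-colour Affymetrix RAT230_2.0 arrays, 1 per treatment and experiment, 8 in all. The deposited values are linear summary intensities, 1 per probe set and array, and the submitters' processing notes name RMA (version not given in the sources used here). The methods also describe GeneSpring processing of the raw values with division by each chip's 50th percentile and by DMSO. Neither division is present in the deposited values, whose array medians lie between 365.1 and 378.2. Log2 values were centred on each array's median, and the intensities printed are 2 to the power of these values, scaled back to a common median, and so are not exactly those deposited. No detection calls were used, so low intensities may not lie above background, and the number of arrays limits the precision. RMA summaries can understate folds of dim probe sets.

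Samples were grouped by the treatment and replicate number in the labels. Equal numbers were read as 1 experiment, because the methods describe ratios within an experiment to its DMSO array. After group means were removed, same-numbered arrays correlated at 0.728 to 0.829 (TNFα with DMSO 0.729), and the number entered the fit as a replicate block. limma 3.58.1 in R 4.3.3 (lmFit, eBayes) was fitted to all 8 arrays with treatment and block (3 residual degrees of freedom, 3.91 prior), and the contrast of TNFα with DMSO was adjusted by Benjamini-Hochberg over 31042 probe sets, threshold 0.05. Tested on simulated data for this contrast over 31042 probe sets, it called 56 of 100 probe sets changed 1.45-fold, 82 of 100 changed 2-fold and 4 of 30842 unchanged.

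Of 31099 probe sets, 57 controls were left out. By the array's annotation of 2016, 20826 carried 1 gene symbol, 436 several and 9780 none, and 20758 Entrez identifiers were found in RefSeq. A gene was read by the brightest (mean log2) of its probe sets, 14217 genes in all. Among members of the 46 gene lists, 0 genes had probe sets called in opposite directions. The annotation gives no probe positions, so none are printed. Promoter windows are RefSeq's, build GRCr8.

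The arrays compared, the 46 gene lists and the rule for named genes were chosen with earlier results of these data known. The rule took the 15 largest rises and falls that passed in the same direction in both experiments, up to 6 called members of each list with the smallest adjusted p (2 members where none passed), 22 fixed genes (of which Sox9 could not be read and another is not reported here) and the cell markers as lists, 192 genes in all. Other names, such as Lcn2, Cd36, Gpd1, G0s2, Aoc3, Plin1 and the list members named without values, were chosen after their values were seen. Alternatives were no replicate block, only the 4 arrays compared, quantile normalization, no centring, a trended or robust prior, a filter on the dimmest 40 percent of probe sets, leaving out each array, and other fold thresholds and averages. Python 3.11.15 with pandas 2.3.3 and matplotlib 3.10.9 made tables and plots.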

Additional observations from a re-analysis of the deposited data

How the results depend on the processing

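Counts of calls depended on the replicate block and on single arrays, while 0 of 192 named genes changed direction with a call under any alternative. The block, which pairs the arrays of an experiment, carried most calls. With no replicate block 25 probe sets were higher and 0 lower (1537 and 1738 at an unadjusted p under 0.05 in limma), against 1057 and 554 with it. Of 192 named genes 26 kept their side of the threshold, and 166 of the 178 that passed with the block lost their call. The 192 include 14 genes that did not pass with the block, and a gene that passed in neither fit counts as keeping its side. With only the 4 arrays of TNFα and DMSO and the block, 352 were higher and 77 lower, on 1 residual degree of freedom. Without 1 array, calls higher ranged between 363 (DMSO, experiment 1) and 1113 (TNFα, experiment 2), and calls lower between 93 (DMSO, experiment 1) and 425 (TNFα, experiment 2), and of the named genes 79 and 149 kept their side in those fits. Quantile normalization, no centring, the trended and robust priors and the filter on the lowest 40 percent gave 892 to 1173 calls higher and 467 to 637 lower, and the share of calls that were higher was 58.3% by quantile normalization and 71.3% without centring, against 65.6%. For the fold rule (513 higher, 115 lower), a threshold of 1.3 gave 868 and 298 and of 2 gave 184 and 4, experiment 1 alone 1174 and 456, experiment 2 alone 963 and 272, the geometric mean 881 and 266, and 1 probe set per gene 311 and 70. Fewer criteria or fewer probe sets account for these last counts by construction, and elsewhere the cause was not tested. A difference smaller than the variation of treatment differences between the 2 experiments was not detectable with 2 arrays per group. Probe sets near the low end of the intensity range carry little signal over background.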

Other observations

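Some single genes on no list, chosen here after their values were seen, also passed, and they stand for no group. Ch25h, cholesterol 25-hydroxylase, had 168 and 224 with TNFα against 104 and 139 with DMSO, and Cyp7b1, which hydroxylates oxysterols, had 331 and 265 against 102 and 94.8 (adjusted p = 0.00533 and 3.07e-04, limma). Hsd11b1, which regenerates active glucocorticoid, had 6678 and 5660 with TNFα against 908 and 1556 with DMSO, and Fkbp5, a cochaperone of the glucocorticoid receptor, had 838 and 1057 against 365 and 408. The simple epithelial keratins Krt8 and Krt18 rose by 0.68 and 1.77 on the log2 scale. Chi3l1, a secreted chitinase-like protein of inflamed cartilage, rose by 2.24 and the kinase Ripk2, which acts below NOD receptors, by 1.66. Among genes that fell, Eln, the elastin core of elastic fibres, had 3546 and 6310 with TNFα against 6639 and 9648 with DMSO, and the microfibril proteins Mfap2 and Mfap5 fell by 0.86 and 0.38. Ckb, creatine kinase, fell by 0.64. Hsd11b1, Fkbp5, Ch25h, Cyp7b1, Krt8 and Ckb kept their calls in each of the 8 fits without 1 array.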
